A study of Columba livia with 4 samples.

Results

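Long acetylated domains are stretches of the pigeon genome in which peaks of H3K27ac, the acetylation of lysine 27 of histone H3, follow each other closely for at least 20 kb. The members were chosen by measured values, the positions and widths of H3K27ac peaks: they were found by merging H3K27ac peaks of the same scaffold over gaps of up to 5 kb and keeping merged domains of at least 20 kb. This gave 504 long domains among 17608 merged domains, and 3297 domains of 5 to 20 kb served for comparison. The samples were chromatin of wild-type primary melanocytes of Columba livia, immunoprecipitated for the transcription factor SOX10, for H3K27ac and for H3K27me3 (trimethylation of the same lysine), with an input of chromatin that was not immunoprecipitated. All cells grew in Ham's F10 with 10% fetal bovine serum, 5% Nu-serum, antibiotic and antifungal, with endothelin-3 at 10 ng/mL, cholera toxin at 40 ng/mL and TPA (a phorbol ester) at 85 nM, and were fixed for 15 min with formaldehyde at 1%. Each target had 1 library, and the labels used here do not say whether cells of several birds were combined. The melanocyte label was not checked against marker genes, since the scaffolds are named as in the AKCR02 assembly series and neither its sequence nor its genes were used here; no gene is named and no sequence is printed.

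H3K27ac is laid down by the acetyltransferases p300 and CBP at active promoters and enhancers, and its peaks are widely used to find these elements. Some long runs of it are called super-enhancers or stretch enhancers, which are known in mammals for lying near genes that define a cell type. The long domains here were chosen by merged length alone, so they are not given these names. H3K27me3 is laid down by Polycomb repressive complex 2 on silent developmental genes, and a given lysine 27 can carry the acetyl or the methyl mark but not both. SOX10, an HMG-box factor of the neural crest, is required for melanocytes and activates pigment cell genes, among them Mitf in mouse.

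The H3K27ac list chose the domains, so their acetylation is given as a description. The long domains made up 2.86% of all merged domains and held 14.1% of the H3K27ac peaks and 23.9% of the acetylated bases. Together they spanned 16.8 Mb, of which 10.3 Mb lay under peaks and 6.58 Mb in the gaps between them. Their lengths had a median of 27.8 kb (quartiles 23.1 and 38.1 kb) and reached 124 kb. Nearly all were chains of peaks and not single broad peaks. A long domain held a median of 8 peaks (quartiles 6 and 11), against 3 (2 and 4) in domains of 5 to 20 kb. Per 10 kb the median was 2.82 peaks in long domains and 3.68 in domains of 5 to 20 kb. A single peak made up the whole domain in 1 case, the 22.2 kb at 11080845 to 11103049 of AKCR02000003.1, with an H3K27ac fold of 13.5 over local background and 4 SOX10 summits. This domain was picked after its values were seen.

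Peaks covered a median of 60.3% of the length of a long domain (quartiles 50.6 and 72.1%), against 52.2% (37.6 and 69.5%) of a domain of 5 to 20 kb. The gaps inside long domains, 4328 in number, had a median of 1031.5 bp. The 7914 gaps in domains of 5 to 20 kb had a median of 1223 bp. Gaps over 3 kb, close to the merging limit, made up 15.3% of those in long domains and 22.5% of those in domains of 5 to 20 kb. Over all merged domains they made up 15.5%, close to the share in long domains, and the median gap was 913 bp. The widest peak of a long domain had a median of 6.94 kb and took a median of 37.6% of its acetylated bases. Its median was 2.44 kb, and its share 55.8%, in domains of 5 to 20 kb. Of the long domains with several peaks, the widest peak was also the one of highest fold in 45.1%, against 63.0% of such domains of 5 to 20 kb. The highest peak fold in a domain had a median of 9.69 in long domains and 6.44 in domains of 5 to 20 kb, while the median fold over all peaks was 3.84 in long domains and 3.90 in domains of 5 to 20 kb. The highest fold is taken over more peaks in a long domain, and the part of peak number in that difference was not tested.

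**Figure D1:**
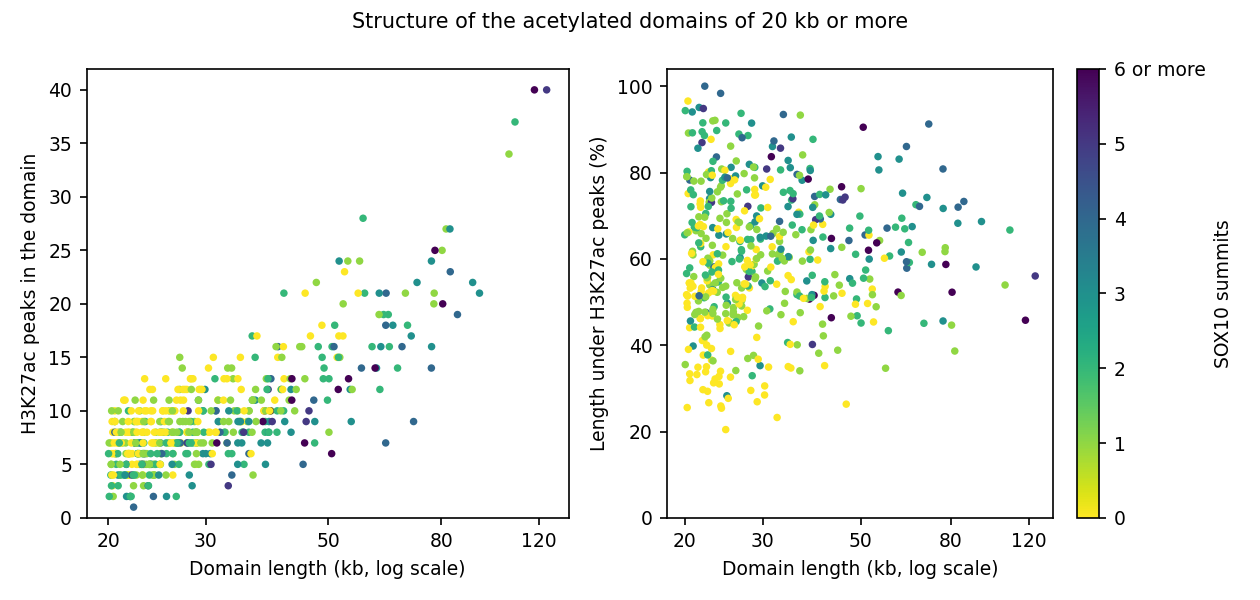
Each point is a long domain (n = 504), by its length in kb (log axis) and its number of H3K27ac peaks (left) or the percent of its length under peaks (right), coloured by its SOX10 summits. The number of peaks goes up with length to 40, while the covered share, with a median of 60.3%, shows no such slope. Domains without a summit had a median cover of 52.4%, against 64.2% for those with one.

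The 20 kb limit cuts through a continuous range of lengths. The 5 domains just above it were 20.006 to 20.198 kb long, held 2 to 7 peaks that covered 35.5 to 94.3% of their length, and had 0 to 2 SOX10 summits. The 5 just below it were 19.914 to 19.981 kb long, held 4 to 9 peaks that covered 53.5 to 87.2%, and also had 0 to 2 SOX10 summits. No break separated the members from their neighbours in length.

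The 4 longest domains were chains of 34 to 40 peaks, none wider than 8.22 kb. That of 124 kb, at 48950 to 173001 of AKCR02000183.1, was a chain of 40 peaks of which the widest was 7.31 kb, and H3K27me3 covered 32.5% of its left and 13.5% of its right 20 kb flank. The domain of 118 kb at 278360 to 396254 of AKCR02000093.1 also had 40 peaks, with 45.8% of its length covered. The third, of 109 kb at 3313 to 112038 of AKCR02000152.1, had 37 peaks and a highest fold of 26.4. Neither of its flanks had H3K27me3, but the left one was cut short of 20 kb by the scaffold start. The fourth, of 106 kb at 509226 to 615256 of AKCR02000141.1, had 34 peaks and a left flank with 62.5% of its bases under H3K27me3. Inside these 4 domains, in order of length, H3K27me3 covered 22.4%, 12.1%, 7.26% and 11.7% of the bases. Their scaffolds, in the same order, had spans of 0.388, 2.05, 0.547 and 0.750 Mb. A span reaches to the end of the last peak in any list. The domain at 2970880 to 3062033 of AKCR02000061.1 was built otherwise: its widest peak alone was 24.2 kb, in a domain of 91.2 kb with 22 peaks. The remaining 5 of the 10 longest held 19 to 27 peaks over 81.6 to 93.8 kb.

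The first comparison asked how SOX10 was spread over long domains. SOX10 was not used to choose them. Most long domains held SOX10: 359 of 504 (71.2%, exact 95% interval 67.1 to 75.1%) had at least 1 SOX10 summit, against 1186 of 3297 domains of 5 to 20 kb (36.0%, 34.3 to 37.6%) and 17.7% of all merged domains. At least 2 summits were found in 217 long domains (43.1%, 38.7 to 47.5%), against 304 domains of 5 to 20 kb (9.22%, 8.25 to 10.3%) and 3.41% of all merged domains. Exactly 1 summit was found in 142 long domains (28.2%), close to the 26.8% of domains of 5 to 20 kb, against 14.3% of all merged domains. None was found in 145 (28.8%), against 64.0% of domains of 5 to 20 kb and 82.3% of all merged domains. At least 5 were held by 27 (5.36%), against 1 domain of 5 to 20 kb and 0.165% of all merged domains. In all, 798 of the 6579 SOX10 summits (12.1%, 11.3 to 12.9%) lay in long domains. Intervals here and below are exact and cover counting error only. Each target had 1 library and neighbouring peaks are not independent, so no test across samples can be given.

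Per length, the SOX10 density of long domains was close to that of domains of 5 to 20 kb, and whether it was lower depended on the settings. Long domains had 4.74 summits per 100 kb (4.41 to 5.08), against 5.07 (4.82 to 5.32) in domains of 5 to 20 kb. The ratio of 0.935 had an interval of 0.858 to 1.02, which includes 1. The interval lay below 1 with a merging gap of 10 kb, at 0.897 (0.834 to 0.965), and with SOX10 peaks of −log10 q of at least 5, at 0.885 (0.789 to 0.993). With SOX10 peaks of fold 5 or more alone the ratio turned to 1.12, with an interval that also includes 1. On scaffolds of at least 1 Mb it was 0.986 (0.894 to 1.09). There lay 69.0% of long domains and 79.8% of domains of 5 to 20 kb. Both classes had fewer summits per 100 kb on scaffolds of short span. Under 0.1 Mb the density was 2.601 in long domains and 2.517 in domains of 5 to 20 kb. In the same order it was 3.721 and 4.178 at 0.1 to 1 Mb. It was 5.440 and 4.835 at 1 to 10 Mb, and 5.267 and 5.901 over 10 Mb. Among long domains the density showed no steady order with length. It was 5.14 per 100 kb (4.48 to 5.87) in the 190 domains of 20 to 25 kb, 4.20 (3.49 to 5.01) in the 107 of 25 to 30 kb, 5.44 (4.70 to 6.27) in the 101 of 30 to 40 kb, 4.50 (3.80 to 5.29) in the 68 of 40 to 60 kb and 4.10 (3.40 to 4.91) in the 38 of at least 60 kb. The share of domains with a summit was 61.6% in the shortest of these classes and 78.2% in the middle one, and all 38 domains of at least 60 kb held one or more (100%, 90.7 to 100%). Across the 504 domains Spearman's rho of length with the number of summits was 0.33, and with summits per 100 kb it was 0.017. It was 0.43 between the covered share and summits per 100 kb, as a description of domains that share libraries and scaffolds.

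Inside long domains SOX10 sat on the acetylated peaks. Of the 798 summits, 745 (93.4%, 91.4 to 94.99%) lay under a peak, where peaks made up 61.0% of the length. In domains of 5 to 20 kb, 1353 of 1550 (87.3%, 85.5 to 88.9%) did so, with 54.7% of the length under peaks. The density was 7.25 summits per 100 kb (6.74 to 7.79) under the peaks of long domains and 0.806 (0.604 to 1.05) in their gaps, a ratio of 9.0 (6.81 to 12.1). Under the peaks of domains of 5 to 20 kb it was 8.08 (7.65 to 8.52), and long domains stood lower by a ratio of 0.898 (0.820 to 0.982). On scaffolds of at least 1 Mb this ratio was 0.932 and its interval of 0.841 to 1.03 included 1, and it turned to 1.04 (0.763 to 1.42) with SOX10 peaks of fold 5 or more. In gaps, long domains also stood lower than the 1.42 (1.23 to 1.63) of domains of 5 to 20 kb, by 0.567 (0.410 to 0.771).

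The few summits in gaps hugged the peaks. The 53 of them had a median distance to the closest peak of 141 bp (quartiles 109 and 271 bp), and the farthest lay 1498 bp away. Gaps of long domains held more summits than the first 5 kb outside the domains, which by the merging rule has no H3K27ac: there the density was 0.447 per 100 kb (0.277 to 0.684), a ratio of gaps to outside of 1.80 (1.07 to 3.14). For domains of 5 to 20 kb the same ratio was 4.04 (3.18 to 5.14), with 0.352 per 100 kb (0.290 to 0.424) outside. Both ratios compare unlike distances from a peak. A gap has a peak at either end and a median of 1031.5 bp in long domains, while the outside strip reaches 5 kb from the domain. Gaps and outside at equal distance from a peak were not compared, so the part of distance was not tested. Across the whole 20 kb flanks, which can hold other acetylated peaks, the density was 1.15 (0.996 to 1.31) beside long domains and 0.940 (0.887 to 0.996) beside domains of 5 to 20 kb. The ratio of flanks was 1.22 (1.05 to 1.41), with 11.2% of the bases under H3K27ac beside long domains and 7.65% beside domains of 5 to 20 kb. It was 1.05 (0.915 to 1.20) with a merging gap of 10 kb. Flanks were summed over domains, so a summit in overlapping flanks of neighbouring domains was counted more than once. The intervals of flank densities and of their ratio do not take this into account. Outside H3K27ac peaks the density was 0.440 (0.345 to 0.555) in flanks of long domains and 0.413 (0.376 to 0.452) in those of domains of 5 to 20 kb.

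**Figure D2:**
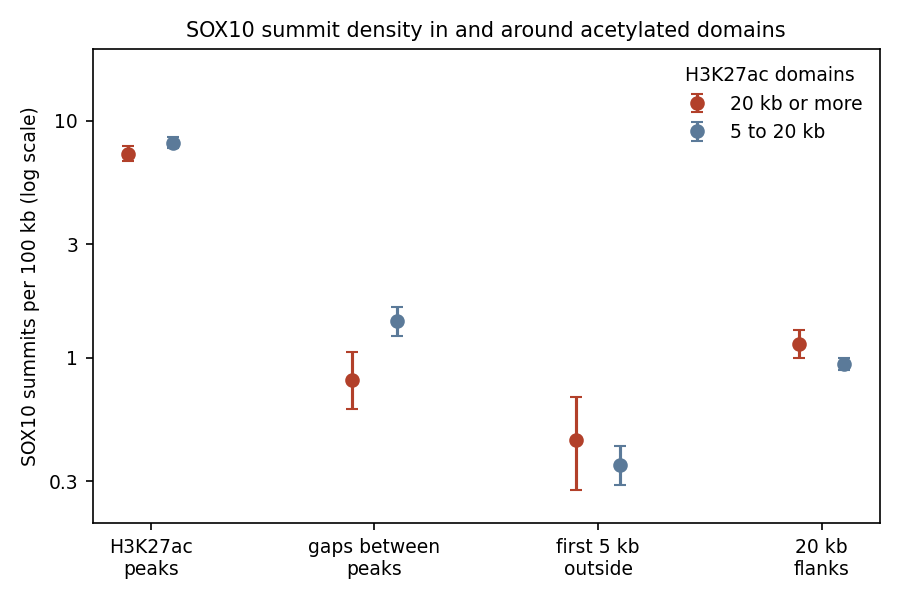
SOX10 summits per 100 kb (log axis) under H3K27ac peaks, in the gaps between them, in the first 5 kb outside and in the 20 kb flanks, for long domains (left of each pair) and domains of 5 to 20 kb; bars are exact 95% Poisson intervals. Peaks of both classes stand highest (7.25 and 8.08), and the gaps of long domains (0.806) lie under those of domains of 5 to 20 kb (1.42).

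Along a long domain SOX10 was spread evenly from edge to middle. The central 50% of the length held 50.3% of the summits (46.7 to 53.8%), and 50.5% of the acetylated bases lay there. In domains of 5 to 20 kb the centre held 41.4% (38.9 to 43.9%) of the summits and 41.5% of the acetylated bases. In 5 zones of 10% of the length from either edge inward, long domains had 4.63, 4.72, 4.51, 4.96 and 4.87 summits per 100 kb, all within each other's intervals. Domains of 5 to 20 kb had 5.44, 6.52, 5.10, 3.86 and 4.41, highest in the second zone (5.90 to 7.19) and lowest in the fourth (3.38 to 4.38). Their edges were the most acetylated, since a domain begins and ends with a peak. The outermost zone was 79.4% covered and the innermost 44.5%, against 64.0% and 62.2% in long domains. Per 100 kb of acetylated bases, the outermost zone of domains of 5 to 20 kb had the fewest summits, 6.86 (6.14 to 7.63). The zones further in had 8.52 to 11.7. In long domains this density ran from 7.23 to 8.30 over the 5 zones.

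Within a domain the widest and the strongest peak held more than their share. In long domains of several peaks the widest peak held 439 of 794 summits (55.3%, 51.8 to 58.8%) with 39.8% of the acetylated bases. The peak of highest fold held 47.2% of them (43.7 to 50.8%) with 29.0% of the bases. In domains of 5 to 20 kb the widest peak held 61.4% (58.9 to 63.9%) of the summits with 57.4% of the bases. Of the 217 long domains with at least 2 summits, 131 (60.4%, 53.5 to 66.9%) had summits in at least 2 different peaks. The matching share of other domains is not given here, and long domains hold more peaks. The 60.4% is therefore not read as a trait of long domains. Neighbouring summits of a long domain lay a median of 5134 bp apart (quartiles 1891 and 11750 bp, 439 pairs), and of a domain of 5 to 20 kb 2766 bp (1080 and 5480 bp, 364 pairs), where longer distances have no room. Inside its own peak, a summit lay in the central 50% in 63.8% of cases (60.2 to 67.2%) in long domains and 70.5% (68.0 to 72.9%) in domains of 5 to 20 kb.

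Of the 4832 H3K27ac peaks in long domains 522 (10.8%, 9.94 to 11.7%) carried a SOX10 summit, and 143 carried at least 2, up to 8. The matching share over all H3K27ac peaks is not given here, so 10.8% is not read as a trait of long domains. By density, peaks held 7.25 summits per 100 kb in long domains and 8.13 over all merged domains. Peaks with a summit had a median width of 5267 bp and a median fold of 8.24, against 859 bp and 3.63 for peaks without. SOX10 density went up steeply with the width of the acetylated peak. In every width class it was lower in long domains than in domains of 5 to 20 kb, though not always beyond the interval. In long domains the density under peaks was 1.11 summits per 100 kb (0.359 to 2.58) at widths under 500 bp, 2.24 (1.33 to 3.55) at 500 to 1000 bp and 3.61 (2.69 to 4.73) at 1000 to 2000 bp. It was 5.75 (4.76 to 6.88) at 2000 to 4000 bp, 8.47 (7.37 to 9.68) at 4000 to 8000 bp and 11.3 (10.1 to 12.6) at 8000 bp or more. The 236 peaks of that last class, 4.88% of the 4832 peaks in long domains, held 338 of the 798 summits. Being the widest, they also hold more bases each: their density of 11.3 compares with 7.25 under all peaks of long domains. At least 1 summit lay in 72.5% of the 236, against 72.6% of the 117 such peaks in domains of 5 to 20 kb. At 1000 to 4000 bp the 1737 peaks of long domains had 4.86 summits per 100 kb (4.16 to 5.65), against 8.25 (7.64 to 8.89) for the 4242 peaks of domains of 5 to 20 kb. The ratio was 0.589 (0.495 to 0.698), and 0.661 (0.542 to 0.801) on scaffolds of at least 1 Mb. The median fold of these peaks was 4.65 in long domains and 4.83 in domains of 5 to 20 kb. H3K27me3 covered 6.60% of their bases in long domains and 2.89% in domains of 5 to 20 kb; its part in the result was not tested. At 8000 bp or more the ratio was 0.944 (0.773 to 1.158). This comparison by width was chosen after the data were seen.

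**Figure D3:**
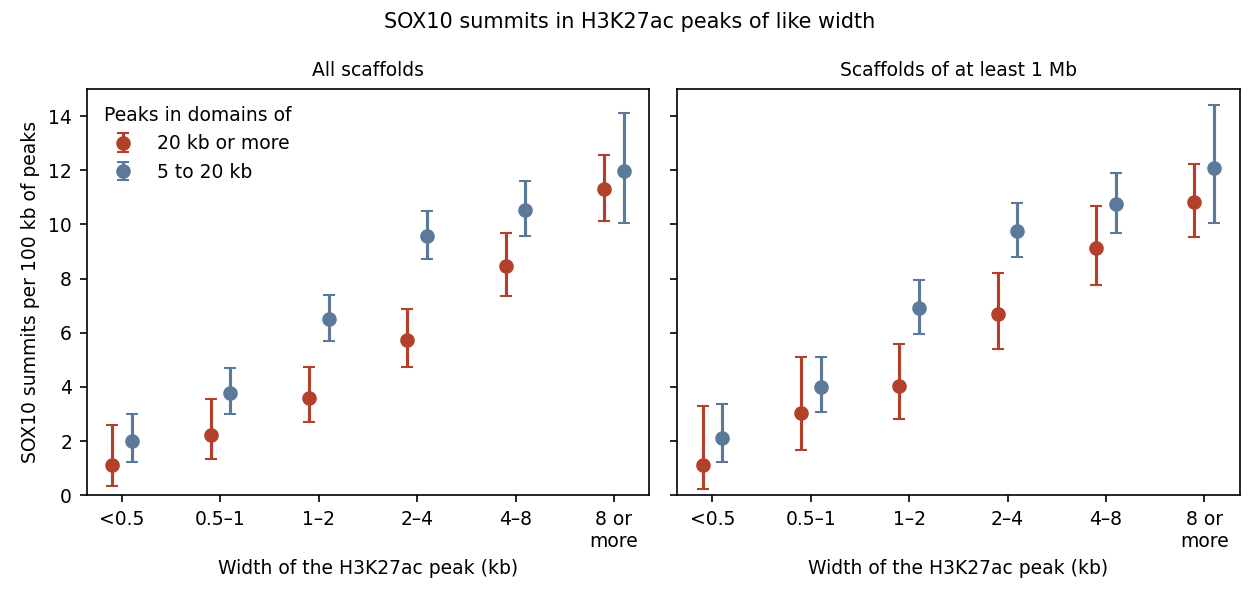
SOX10 summits per 100 kb of H3K27ac peak by the width of the peak in kb, for peaks in long domains (left of each pair) and in domains of 5 to 20 kb, on all scaffolds and on those of at least 1 Mb; bars are exact 95% Poisson intervals. Between 1 and 4 kb the peaks of long domains stand lower in both panels (ratios of 0.589 and 0.661), and at 8 kb or more the intervals overlap.

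The 10 long domains with the most SOX10 held 6 to 9 summits each and differed in how these lay. With 6 summits there were 7 domains, of which the 3 with the most per 100 kb are among the 10. The richest, at 3599075 to 3644343 of AKCR02000009.1, had 9 summits in 45.3 kb, or 19.9 per 100 kb. Of these, 7 lay in its widest peak of 25.9 kb and all 9 under peaks. Their folds ran from 2.28 to 4.39 over local background, with 20 to 56 fragments, so no strong site stood out. The first lay 9.21 kb and the last 31.957 kb from the start of the domain.

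The domain at 62241 to 105172 of AKCR02000247.1 was the opposite case in strength. All 8 of its summits lay in its widest peak of 13.9 kb, between 23.3 and 32.1 kb from the start of the domain. The summit at 85506 had a fold of 20.5 with 111 fragments over a background of 4.46, and another at 93273 had a fold of 6.53 with 67 fragments. The other 6 had folds of 2.37 to 4.43. H3K27me3 covered 6.15% of this domain and 26.6% of its left flank. The scaffold had a span of 0.188 Mb.

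In the domain of 60.7 kb at 6608142 to 6668857 of AKCR02000032.1 the 8 summits were scattered. Only 3 lay in the widest peak, 2 in the central 50% of the length and 1 in a gap, and their folds ran from 2.39 to 3.61. The domain of 118 kb on AKCR02000093.1 also had 8, at 6.79 per 100 kb, with a pair near its right end, 114.0 and 114.5 kb from its start. The next 3 had 7 summits each: at 606682 to 644727 of AKCR02000072.1 (38.0 kb, all under peaks), at 113940 to 152219 of AKCR02000032.1 (38.3 kb) and at 778264 to 821175 of AKCR02000122.1 (42.9 kb). The last of these lay between flanks with 55.0% and 27.1% of their bases under H3K27me3, and 15.5% of its own. The last 3 had 6 each, among them the domain at 1 to 31403 of AKCR02000319.1, where all 6 lay in a peak of 21.7 kb, and the domain at 42363416 to 42414079 of AKCR02000001.1, with 90.5% of its 50.7 kb under 6 peaks. The domain on AKCR02000319.1 began at the scaffold start, and the span of that scaffold was 0.0941 Mb. Long domains rich in SOX10 were thus of both kinds, with the summits packed into 1 broad peak or spread over a chain of peaks.

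**Figure D4:**
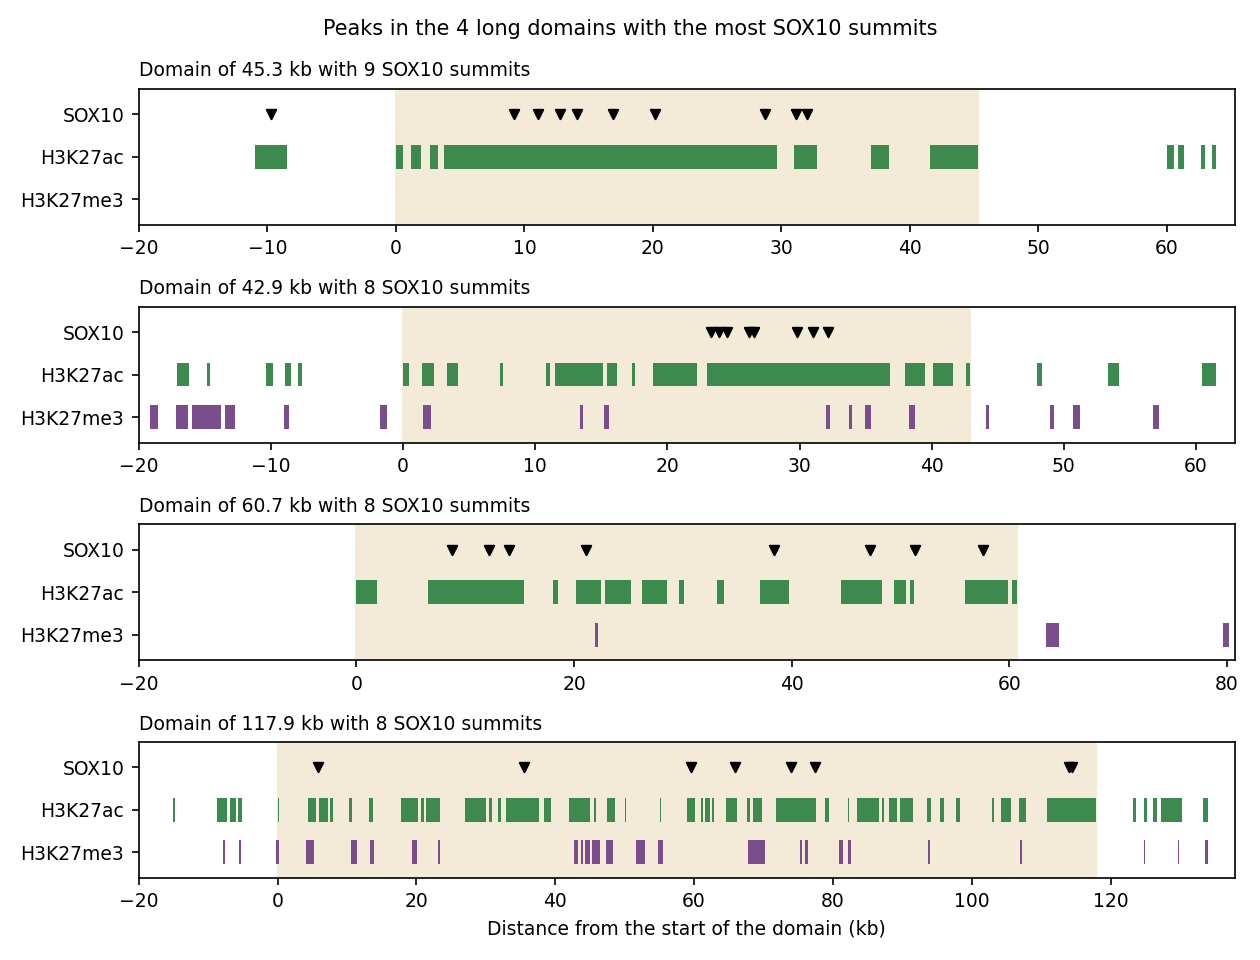
Peaks of H3K27ac and H3K27me3 (bars) and SOX10 summits (triangles) in the 4 long domains with the most summits and 20 kb either side, by distance in kb from the start of the domain (shaded). The 45.3 and 42.9 kb domains have 7 of 9 and 8 of 8 summits in their widest peak, while the 60.7 and 118 kb domains have 3 of 8 and 2 of 8.

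SOX10 peaks of long domains were about as strong as those elsewhere. Their median fold was 3.26 (quartiles 2.78 and 3.97), against 3.34 (2.83 and 3.95) in domains of 5 to 20 kb and 3.35 (2.84 and 4.01) over the whole list. Summits held a median of 36 fragments (27 and 46) over a local background of 9.98 in long domains, and 34 (27 and 43) over 9.87 in domains of 5 to 20 kb. In 5 classes of local background, low to high, the median fragments were 23, 27, 31, 39 and 46.5 in long domains, against 22, 28.5, 33, 38 and 46 in domains of 5 to 20 kb. A fold of at least 5 was reached by 75 of 798 (9.40%, 7.46 to 11.6%) in long domains, against 122 of 1550 (7.87%, 6.58 to 9.33%) in domains of 5 to 20 kb and 8.60% over the whole list. Domains with several summits had no stronger ones, at a median fold of 3.25, against 3.31 for lone summits. The summits in gaps had a median fold of 3.57, and 0 of 53 lay in H3K27me3, which allows a share of up to 5.66% when 3 counts are taken as the limit of a count of 0.

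The 145 long domains without a SOX10 summit were less covered, and H3K27me3 touched more of them. Their median length was 24.961 kb, against 29.116 kb for the 359 with a summit, with a median of 9 peaks against 8. Peaks covered a median of 52.4% of their length, against 64.2%, and their widest peak had a median of 4.21 kb, against 8.06 kb. The highest H3K27ac fold had a median of 7.75, against 10.4. H3K27me3 touched 84 of the 145 (57.9%, 49.5 to 66.1%), against 131 of the 359 (36.5%, 31.5 to 41.7%). Of those without a summit 57.2% lay on scaffolds of at least 1 Mb, against 73.8% of those with one. On such scaffolds H3K27me3 touched 34.9% (24.8 to 46.2%) of the 83 without a summit, against 21.1% (16.4 to 26.5%) of the 265 with one. The longest without a summit was 56.6 kb, at 37032 to 93605 of AKCR02000320.1, where 0 summits allow up to 5.30 per 100 kb by the same limit of 3 counts. The longest of them on a scaffold of at least 1 Mb was 53.1 kb at 1946534 to 1999636 of AKCR02000043.1, with 17 peaks and no H3K27me3 inside or in its flanks. The other 3 of the 5 longest measured 51.8 to 53.5 kb and had 0.554 to 16.0% of their bases under H3K27me3. The longest of the 5 ended at the span end of its scaffold, as did those on AKCR02000338.1 and AKCR02000375.1. The true lengths of these are not known.

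The second comparison was of H3K27me3 inside long domains, a mark not used to choose them. H3K27me3 touched 215 of 504 long domains (42.7%, 38.3 to 47.1%), against 694 of 3297 domains of 5 to 20 kb (21.0%, 19.7 to 22.5%) and 15.6% of all merged domains. By share of bases the difference was smaller: 4.91% of the bases of long domains lay under H3K27me3 and 3.56% of those of domains of 5 to 20 kb. The ratio of the shares was 1.38, and with a merging gap of 2 kb it was 1.00. At least 10% was covered in 91 long domains (18.1%, 14.8 to 21.7%), against 9.34% (8.37 to 10.4%) of domains of 5 to 20 kb and 12.0% of all merged domains. Touched domains were more frequent in the longer classes, at 33.2%, 38.3%, 43.6%, 58.8% and 71.1% from 20 to 25 kb up to at least 60 kb, and a longer domain offers more bases to touch. The share of bases in these classes was 3.13%, 4.24%, 4.91%, 7.44% and 5.35%. At least 30% was covered in 11 long domains (2.18%, 1.09 to 3.87%), against 3.52% (2.92 to 4.21%) of domains of 5 to 20 kb and 8.38% of all merged domains.

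Within long domains H3K27me3 covered peaks and gaps nearly alike, at 5.21% of the acetylated bases and 4.43% of the gap bases. Among the peaks, narrow ones were covered most. Of the bases of peaks under 500 bp 15.4% were also called H3K27me3, and of those of peaks of 8000 bp or more 1.28%. In domains of 5 to 20 kb these shares were 11.9% and 0.559%. It also thinned from the edge inward, with 6.74% of the bases of long domains in the outermost 2.5 kb and 3.52% between 7.5 and 10 kb inside. The 1238 H3K27me3 peaks that touched long domains were small, with a median width of 423.5 bp, and 93.5% lay wholly inside, against 480 bp and 77.6% for domains of 5 to 20 kb. Over the whole H3K27me3 list the median width was 488 bp.

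The 5 long domains with the largest share of bases under H3K27me3 had 7 to 16 acetylated peaks, and the widest of each domain measured 1.95 to 6.94 kb. At 148834 to 179783 of AKCR02000141.1, 69.9% of 31.0 kb lay under H3K27me3, with 15 H3K27ac peaks of at most 1.95 kb and flanks that were 89.1% and 91.8% covered. No SOX10 summit lay in it. The domain at 9284459 to 9323343 of AKCR02000027.1 had 66.5% under H3K27me3 and yet 5 SOX10 summits, all under acetylated peaks and none in the central 50% of its length. Its strongest had a fold of 8.46. The other 3 had 38.5 to 39.3% under H3K27me3 and no summit.

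The amount of H3K27me3 differed with the span of the scaffold. The span of a scaffold, a lower limit of its length, is where its last peak ends in any of the lists. On scaffolds with a span under 0.1 Mb, 88.2% of 34 long domains were touched, against 66.3% of 202 domains of 5 to 20 kb. The share was 82.0% against 53.0% at 0.1 to 1 Mb, 36.3% against 19.6% at 1 to 10 Mb, and 11.8% (7.38 to 17.7%) against 6.10% (4.94 to 7.44%) over 10 Mb. How much of the short scaffolds is repeated sequence that an assembly can collapse was not measured, and peak lists cannot show it. By bases, long domains had 11.5%, 10.2%, 3.21% and 0.979% under H3K27me3 in these classes, against 13.2%, 10.4%, 2.73% and 0.567% in domains of 5 to 20 kb. Pooled over the scaffolds with both kinds the ratio of the shares was 1.61, but counted by scaffold long domains were more often lower. Of the 164 scaffolds with both kinds, the share of bases under H3K27me3 was higher in long domains on 53, lower on 90 and equal on 21. With at least 3 long domains on the scaffold it was higher on 23, lower on 33 and equal on 1. Such a count often sets few long domains against many of 5 to 20 kb, as on AKCR02000013.1, with 1 (0% under H3K27me3) against 29 (0.197%). Elsewhere the mark was not sparse and the numbers were alike, as on AKCR02000164.1, with 4 long domains (18.8%) against 5 (53.5%). Both scaffolds were picked after their values were seen. The part of unequal numbers in the count was not tested. The pooled ratio and the count by scaffold go in opposite directions, so a higher share in long domains is not claimed.

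The third comparison was of the flanks. Around long domains 7.29% of the bases within 20 kb lay under H3K27me3, against 3.76% around domains of 5 to 20 kb. A flank with H3K27me3 was found beside 245 of 504 long domains (48.6%, 44.2 to 53.1%), against 1203 of 3297 domains of 5 to 20 kb (36.5%, 34.8 to 38.2%) and 36.8% of all merged domains. Of the 418 long domains whose flanks both reached 20 kb, 75 (17.9%, 14.4 to 22.0%) had H3K27me3 on both sides, 105 on 1 side and 238 (56.9%, 52.0 to 61.7%) on neither. In domains of 5 to 20 kb, 11.6% (10.4 to 12.8%) had it on both sides and 66.8% (65.1 to 68.5%) on neither, and of all merged domains 12.1% had it on both and 64.8% on neither. A flank with at least 50% of its bases under H3K27me3 was found beside 26 of the 418 (6.22%, 4.10 to 8.98%), against 2.98% (2.39 to 3.66%) of the domains of 5 to 20 kb and 2.95% of all merged domains with such flanks. Within 20 kb of a merged H3K27me3 domain of at least 20 kb lay 79 long domains (15.7%, 12.6 to 19.1%), and 55 (10.9%, 8.33 to 14.0%) overlapped one. Among domains of 5 to 20 kb, 6.49% (5.67 to 7.39%) lay within 20 kb of one and 3.58% (2.97 to 4.27%) overlapped one, and among all merged domains 5.57% and 3.03% did so. A longer domain offers more bases to overlap one. These shares are also pooled over scaffolds of all spans, and the part of length or span in them was not tested.

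H3K27me3 did not pile up at the edges of long domains. Outside them the share of bases was 6.29% in the first 2.5 kb, 7.95% between 5 and 7.5 kb and 7.92% between 47.5 and 50 kb. Beside domains of 5 to 20 kb the same bins had 3.23%, 3.75% and 4.61%. On scaffolds over 10 Mb the flank share was 1.40% for long domains and 0.893% for domains of 5 to 20 kb, and at 1 to 10 Mb it was 6.59% for long domains and 3.88% for domains of 5 to 20 kb. By scaffold, the flanks of long domains were higher on 66 of 164 scaffolds, lower on 85 and equal on 13, and with at least 3 long domains higher on 33 of 57, lower on 23 and equal on 1. The pooled difference was thus seen on fewer than 50% of all scaffolds with both kinds, and on more than 50% of those with at least 3 long domains. Across the 504 long domains the shares inside and in the flanks went together, with Spearman's rho of 0.70, as a description of neighbouring bases on shared scaffolds.

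**Figure D5:**
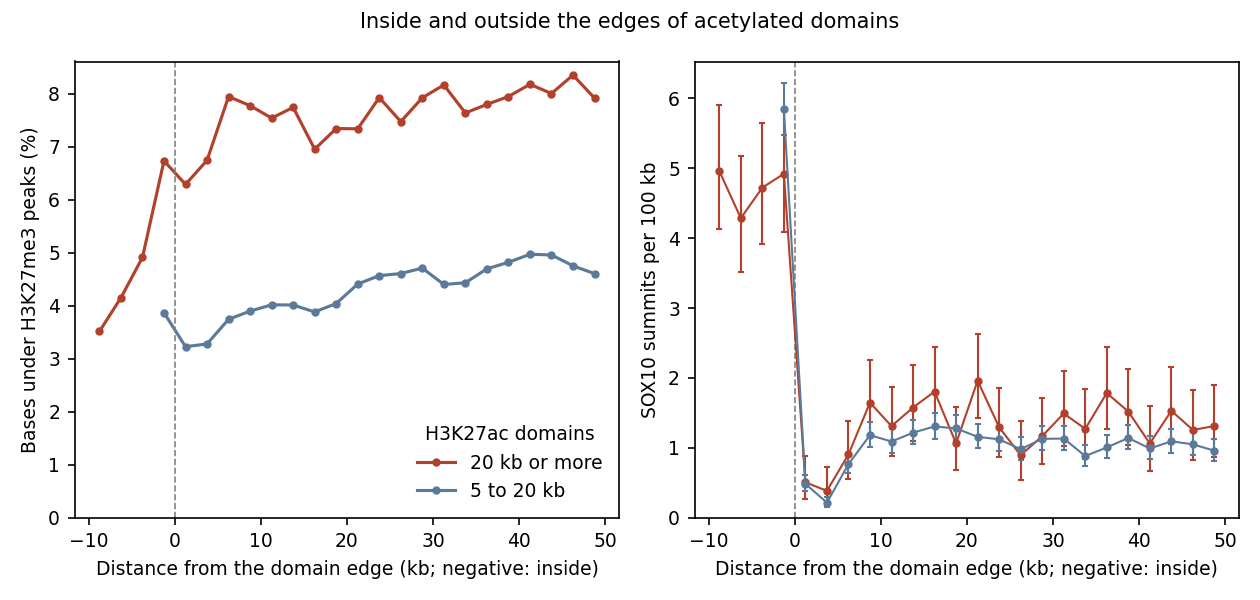
Percent of bases under H3K27me3 (left) and SOX10 summits per 100 kb with exact 95% Poisson intervals (right) in bins of 2.5 kb by distance in kb from the domain edge, negative inside, for long domains and domains of 5 to 20 kb. H3K27me3 beside long domains stays between 6.29 and 8.35% out to 50 kb, above the 3.23 to 4.97% beside domains of 5 to 20 kb, and SOX10 density drops at the edge of both classes.

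Long domains with much H3K27me3 held less SOX10, and scaffolds differed with it. The 91 domains with at least 10% of their bases under H3K27me3 had 2.79 summits per 100 kb (2.26 to 3.40), and 46 of them (50.5%, 39.9 to 61.2%) held SOX10. The 124 with less than 10% had 4.68 (4.08 to 5.35), and the 289 with none had 5.54 (5.06 to 6.05), of which 228 (78.9%, 73.7 to 83.5%) held SOX10. The ratio of at least 10% to none was 0.504 (0.401 to 0.628) per length of domain and 0.656 (0.518 to 0.823) under acetylated peaks. Of the domains with at least 10%, 29.7% lay on scaffolds of at least 1 Mb, against 91.0% of those with none. On scaffolds of at least 1 Mb alone, 27 domains with at least 10% had 8.33 summits per 100 kb under peaks (5.98 to 11.3), against 7.98 (7.23 to 8.79) in 263 with none. The ratio under peaks there was 1.04 (0.738 to 1.44). Per length of domain those with at least 10% still had the lower value on these scaffolds, 4.33 (3.14 to 5.81) against 5.62 (5.11 to 6.17), with a ratio of 0.770 whose interval of 0.551 to 1.05 includes 1. Of the 27, 59.3% (38.8 to 77.6%) held SOX10, against 79.5% (74.1 to 84.2%) of the 263. In an H3K27me3 peak lay 10 of the 798 summits in long domains (1.25%, 0.603 to 2.29%). This was close to the 19 of 1550 in domains of 5 to 20 kb (1.23%, 0.740 to 1.91%), and 2.01% of all SOX10 summits did so.

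Long domains lay on 196 of 2200 scaffolds. Of the 127 scaffolds of at least 1 Mb, 88 carried 1 or more, and 7 scaffolds carried at least 10, led by AKCR02000001.1 with 20 over a span of 94.5 Mb. Per Mb of span there were 0.343 on scaffolds of at least 1 Mb and 2.15 on shorter ones, where 156 of the 504 lay. Spans of short scaffolds come from the peaks themselves, so the second value has no fixed meaning as a density of the genome. Among scaffolds of at least 1 Mb, AKCR02000122.1 had the most per Mb, 5 over 1.29 Mb, which made up 15.6% of its span, and AKCR02000061.1 had 9 over 3.72 Mb, or 9.31% of its span. Both were picked after their values were seen. Neighbouring long domains of a scaffold lay a median of 390 kb apart (quartiles 65.4 and 1730 kb, 308 pairs), and 44 pairs lay within 20 kb. A span end lay within 5 kb of 64 long domains (12.7%, 9.92 to 15.9%), against 7.31% (6.44 to 8.25%) of domains of 5 to 20 kb, so that the true length of these is not known.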

How the data were processed

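Peaks of 1 SOX10, 1 H3K27ac and 1 H3K27me3 library were used; no file of the input was used here. Per the submitters' processing notes, bcl2fastq 2.20, Bowtie2 2.2.9, SAMtools 1.16 and MACS3 3.0.0 were used, without order or settings. No source used here states the control, the build or the handling of duplicates for the histone lists. The authors deposited 1 peak list per library, with a score that was not used, a fold ratio over local background, and p- and q-values as −log10. The lists held 6579, 34223 and 36792 peaks, with largest q-values of 0.0462, 0.0968 and 0.0965.

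From these, merged domains, bases and summits were counted in Python 3.11.15 with SciPy 1.17.1. A touch meant at least 1 base. Fragments at SOX10 summits, the depth behind each, were recovered from fold and p, within 0.001 of the deposited −log10 p for all 6579 peaks. Densities and their ratios have exact 95% Poisson or conditional intervals, and shares exact binomial ones. Bases and summits outside domains were counted for each domain they lay near, and the intervals treat such repeats as separate counts. Shares of bases have none. Total reads per library are not known from the lists used here. Functions were tested on simulated data.

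Members and measures were chosen with earlier results of these data known. Named regions were the 10 longest domains, the 10 with most SOX10 summits, the 5 with most H3K27me3, the 5 longest without SOX10 and the 5 either side of 20 kb. Planned sequence and gene results were not run.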

Additional observations from a re-analysis of the deposited data

How the results depend on the processing

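Of 123 recalculations, 77 kept their value within the first interval or within 1.5 times it. For ratios of densities, keeping meant the same direction and the same answer to whether the interval included 1. The number of long domains was 168 with a merging gap of 2 kb, 1244 with 10 kb, 207 at 30 kb or more and 286 with H3K27ac −log10 q of at least 3. The share with a SOX10 summit was 62.2% for the 10 kb gap, 83.1% at 30 kb and 78.0% for the stricter H3K27ac, and it was 76.1% on scaffolds of at least 1 Mb, 54.6% with SOX10 −log10 q of at least 5 and 13.7% with fold of at least 5. Summits per 100 kb were 6.46 (gap 2 kb), 3.44 (10 kb), 6.00 (stricter H3K27ac), 5.36 (1 Mb), 2.65 (SOX10 q) and 0.445 (SOX10 fold). For the long over 5 to 20 kb ratio per domain length, the interval came to lie below 1 with a 10 kb gap (0.897) and SOX10 q (0.885). This ratio reversed to 1.12 with SOX10 fold. Under peaks its interval came to include 1 with a 2 kb gap (0.932) and on 1 Mb scaffolds (0.932), and the ratio reversed to 1.04 with SOX10 fold. Summits in the central 50% made up 56.25% with a 2 kb gap. H3K27me3 bases were 3.07% with stricter H3K27ac, 2.14% on 1 Mb scaffolds and 2.72% with H3K27me3 −log10 q of at least 3, and in flanks 4.05% on 1 Mb scaffolds. The long over 5 to 20 kb ratio of H3K27me3 bases inside domains, 1.38 as reported, was 1.00 with a 2 kb gap and 1.14 to 1.66 elsewhere; in flanks it was 1.57 to 2.55. SOX10 per 100 kb of flank was 1.76 (gap 2 kb), 0.654 (10 kb), 1.33 (stricter H3K27ac), 0.635 (SOX10 q), 0.0978 (SOX10 fold) and 0.447 (5 kb flanks). Its ratio included 1 with a 10 kb gap (1.05), at 30 kb (1.11), with SOX10 fold (1.35) and 5 kb flanks (1.27). The median SOX10 fold was 5.81 when only folds of at least 5 were kept. The ratio of SOX10 under peaks with at least 10% H3K27me3 over none reversed to 1.04 on 1 Mb scaffolds, a setting chosen after seeing the data, as was that for peaks of 1000 to 4000 bp (0.661). Stricter lists hold fewer peaks by construction; otherwise the cause was not tested. No paired analysis was possible because no target has a second library, and no replicate could be left out. Depth limits the SOX10 list to sites strong enough to pass its q cutoff.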
